A study of Mus musculus with 5 samples.

Results

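The genes of the interferon regulatory factors (IRFs) were followed by ChIP-Seq of elongating RNA Polymerase II in Th2 cells from wild type mice and mice that lack PARP-14. The genes taken were Irf1, Irf2, Irf3, Irf4, Irf5, Irf7, Irf8 and Irf9, 8 of the 11608 gene rows in the deposited table. A row was accepted only where its chromosome and coordinates overlapped the locus of the gene in mm9, because gene labels are displaced in part of the table. Of the 8 genes, 7 had such a row under their own symbol and 1, Irf9, was listed under its older symbol Isgf3g with gene ID 16391. No gene was without a row.

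The libraries came from naive CD4+CD62L+ T cells of the spleens of C57BL/6 mice, or of Parp14-/- mice on that background, 6 to 8 weeks old. All cells were activated through CD3 and CD28 for 3 days with IL-4 at 10 ng/ml and an antibody that neutralizes interferon-gamma, then expanded in IL-2 and IL-4 for 4 days. The 4 groups were Parp14+/+, Parp14+/+ + PJ34, Parp14-/- and Parp14-/- + PJ34, each with 1 ChIP library, and 1 Input library of chromatin from both genotypes was not used here. PJ34 inhibits the ADP-ribosyltransferase activity of PARP enzymes in general and is not specific to PARP-14. Its dose is 10 µM in the sample labels, which describe treatment of differentiated cells, and 5 µM in the methods of the study, which describe culture in its presence. The number of mice behind each library was not given in the sources used here. The antibody recognizes the polymerase phosphorylated at serine 2 of its tail, the form that elongates through a gene, so the values measure polymerase on DNA and not RNA.

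IRFs share a DNA binding domain that recognizes repeats of GAAA, the core of interferon-stimulated response elements. IRF3, IRF5 and IRF7 carry signals from sensors of viral nucleic acid to the interferon genes, IRF9 acts downstream of the type I interferon receptor, and IRF1 is made in response to interferon-gamma, with IRF2 as its competitor. IRF4 and IRF8 act mainly in blood cells. IRF4 is known to be needed for Th2 differentiation, whereas IRF1 favours the Th1 fate.

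The value for a gene is its average peak height, the number of overlapping fragments at the highest point of each enriched region, averaged over the regions assigned to the gene. Regions from 2.5 kb upstream of the gene to 5 kb past its end were assigned in 99.97% of rows, so a height can belong to a neighbouring gene. Every library had been reduced to 8200000 alignments. The genotype ratio is the height in Parp14+/+ over that in Parp14-/-, and the PJ34 ratio is the height without over that with PJ34. Where 4 heights stand in a row, the order is untreated Parp14+/+, treated Parp14+/+, untreated Parp14-/-, treated Parp14-/-. With 1 library per group there was no replicate error and no test. A ratio is given with the exact Clopper-Pearson 95% interval of the summed heights taken as counts, which covers counting error only. A gene was called where the ratio was above 1.4 or below 0.7 and the higher library had a SICER interval. A gene was tested in a pair where either library had such an interval.

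The libraries held between 8841 and 12014 intervals that covered 65.5 to 98.1 Mb, and the median height over all genes was 7.40 to 8.33. Intervals covered 59.2% and 53.9% of Parp14 in the untreated and treated Parp14+/+ libraries and 6.95% and 8.51% in the Parp14-/- libraries, where what remained lay at the start of the gene with a summit of 13. Intervals were present at 4 to 6 of the 6 CD4 T cell markers with a row and at 5 or 6 of the 6 Th2 markers. The summed height of the Th2 markers was 215 and 189 in the Parp14+/+ libraries and 129 and 105 in the Parp14-/- libraries. In untreated cells Il4, Il5, Il13 and Gata3 were lower in Parp14-/-. Maf was nearly level, at 18 in Parp14+/+ and 17 in Parp14-/-, and Ccr4 was at 17 in both. That of the 3 Th1 markers, all with an interval in every library, was 87 and 67 in the former and 72 and 56 in the latter. The NK cell marker Eomes was at 3.5 and 4.5 in the former without an interval and at 7.5 and 6 in the latter with one. A B cell marker, Cd79a, had an interval in every library at a height of 28 to 38, and the other 5 B cell markers had none. Fewer cells in a given state and less polymerase per cell cannot be told apart in such libraries.

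The promoters of Irf1, Irf7 and Irf8 are shown because each of these genes was called in at least 1 comparison and enriched intervals ran across its start in all 4 libraries. The windows of Irf2 and Irf9, also called, overlap an exon of another gene and are left out. Each is the 250 bases before the GENCODE start, read from the mm9 genome on the strand of the gene, and capitals mark TTCNNNGAA, the palindrome bound by STAT proteins. The Irf1 promoter lies at chr11:53583266-53583515 (plus strand), the Irf7 promoter at chr7:148452381-148452630 (minus strand) and the Irf8 promoter at chr8:123260008-123260257 (plus strand).
Irf1: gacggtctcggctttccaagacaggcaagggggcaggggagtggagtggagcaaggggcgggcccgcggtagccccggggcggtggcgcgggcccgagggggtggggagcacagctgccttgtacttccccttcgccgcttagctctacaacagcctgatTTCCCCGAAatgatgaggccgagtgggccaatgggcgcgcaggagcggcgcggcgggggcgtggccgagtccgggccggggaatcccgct
Irf7: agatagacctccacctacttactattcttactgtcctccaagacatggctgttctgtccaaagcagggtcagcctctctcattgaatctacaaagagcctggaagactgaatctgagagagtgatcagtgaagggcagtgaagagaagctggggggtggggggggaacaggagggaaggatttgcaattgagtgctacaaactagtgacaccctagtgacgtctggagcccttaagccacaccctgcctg
Irf8: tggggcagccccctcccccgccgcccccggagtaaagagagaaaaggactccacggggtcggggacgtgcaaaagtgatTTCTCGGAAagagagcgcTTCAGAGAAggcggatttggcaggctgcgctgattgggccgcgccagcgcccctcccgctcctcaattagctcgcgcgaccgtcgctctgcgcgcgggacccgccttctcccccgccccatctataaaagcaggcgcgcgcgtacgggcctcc
The Irf1 promoter held 1 such palindrome, TTCCCCGAA, 90 to 82 bases before the start. The Irf8 promoter held 2, TTCTCGGAA at 171 to 163 bases and TTCAGAGAA at 153 to 145 bases before the start. None was present in these letters in the Irf7 window. The wider palindrome TTCNNNNGAA and the IRF repeat GAAANNGAAA, searched on both strands, were found in none of these 3 windows. In the same window of all 8 genes, Irf2 held 1 palindrome, TTCCGAGAA, and 1 IRF repeat, GAAAATGAAA. Over 10527 promoters of the same length TTCNNNGAA was present in 632, TTCNNNNGAA in 490 and GAAANNGAAA in 291, or 6%, 4.65% and 2.76% of them. GC content was 71.2% at Irf1, 67.2% at Irf8 and 51.2% at Irf7, against a median of 58.4%.

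Irf1, the activator induced by interferon-gamma and known to drive immunoproteasome and antigen presentation genes, had the tallest peak of the family. The gene lies on chromosome 11 from 53583580 to 53590825 on the plus strand. Its average peak height was 86 without and 110 with PJ34 in Parp14+/+ cells, and 144 without and 119 with PJ34 in Parp14-/- cells. These heights lay above 99.7% to 99.8% of genes with an interval in the same library. The untreated Parp14+/+ library was the lowest and the untreated Parp14-/- library the highest, at 1.67 times the former, and the genotype ratio was 0.597 (0.452 to 0.785). Under PJ34 the genotype ratio was 0.924 (0.707 to 1.21). Neighbours in the order of the 4 heights differed by less than counting error.

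The Irf1 peak stood past the gene. In all 4 libraries a single interval covered the whole gene and ended 8075 to 10325 bp beyond it, and the summit lay 1768 to 2136 bp past the annotated end, between genes. A separate interval stood upstream, with its summit 6171 to 6811 bp before the gene start. Its summit heights were 20, 19, 36 and 25, so the untreated Parp14-/- library was again the highest. The active region also reached Gm12216 on the minus strand, 8160 bp downstream. Il5, a Th2 cytokine gene, ends 44975 bp upstream of Irf1, and its heights of 21 and 21 in the Parp14+/+ libraries and 4 and 6 in the Parp14-/- libraries ran in the other direction.

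Irf9 encodes the DNA binding subunit of the complex that carries the type I interferon signal. Its row spans chromosome 14 from 56223416 to 56228867 on the plus strand. The height was 73 without and 60 with PJ34 in Parp14+/+ cells, and 103 without and 63 with PJ34 in Parp14-/- cells. The untreated Parp14-/- library stood apart from the other 3, which lay within counting error of each other. The genotype ratio was 0.709 (0.518 to 0.966), just inside the limit of a call, and the interval excluded 1. Treatment of Parp14-/- cells went with a lower peak, a PJ34 ratio of 1.63 (1.18 to 2.27), and under PJ34 the genotype ratio was 0.952 (0.657 to 1.38).

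The summit behind the Irf9 values lay at the same base, 56222913, in every library. That base is 503 bp upstream of the start in the table, 91 bp after the start of the transcript Irf9-001 and 405 bp past the end of Rnf31, which is transcribed on the same strand and encodes a ubiquitin ligase. Rnf31 shared the active region, and its average heights were 41.5, 36, 57 and 37. These averages include the shared summit, so they are not a separate measure of Rnf31. Polymerase starting Irf9 and polymerase finishing Rnf31 cannot be told apart at this summit.

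Irf2, the repressor that competes with IRF1 for its sites, is a long gene with a low signal. It spans 107684 bp of chromosome 8, from 47825129 to 47932812 on the plus strand, with 8 active regions. The average height was 7.88 without and 8.5 with PJ34 in Parp14+/+ cells, and 9 without and 5.75 with PJ34 in Parp14-/- cells. The treated Parp14-/- library was the lowest. The genotype ratio under PJ34 was 1.48 (1.00 to 2.20, the lower limit just above 1), and the PJ34 ratio in Parp14-/- cells was 1.57 (1.07 to 2.32). When the treated pair was scaled to the median ratio of all genes, 1.15, the first of these became 1.29 and was no longer called. When the highest summit at the gene was used in place of the average, the second became 1.17 and was no longer called. The summits compared there lay at opposite ends of the gene.

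The Irf2 signal sat at the ends of the gene. The region around the start had a highest summit of 17, 17, 12 and 12, which in Parp14+/+ + PJ34 lay 5176 bp before the start. The region around the end had 13, 11, 14 and 10. Between them intervals were scattered, with summits of 6 to 10, and no interior region was enriched in every library. Of the 6 interior regions, 1 had no interval in any of them and 2 had one in untreated Parp14-/- cells alone. The intervals covered 28% of the gene in untreated and 16.6% in treated Parp14+/+ cells, and 30.2% in untreated and 19.8% in treated Parp14-/- cells, so both treated libraries were lower than both untreated ones.

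Among the factors that induce interferon genes, Irf7 had the genotype ratio farthest from 1 in untreated cells. Irf7 is known to amplify type I interferon and is itself induced by interferon. It spans 3213 bp of chromosome 7, from 148449088 to 148452300 on the minus strand. The height was 13 without and 24 with PJ34 in Parp14+/+ cells, and 28 without and 24 with PJ34 in Parp14-/- cells. Untreated Parp14+/+ was the low library, and the other 3 differed by less than counting error. The Parp14-/- peak was 2.15 times the Parp14+/+ peak, a genotype ratio of 0.464 (0.221 to 0.926), while the treated genotypes had equal heights, a ratio of 1.00 (0.544 to 1.84). The PJ34 ratio in Parp14+/+ cells was 0.542 (0.253 to 1.11), past the limit of a call but with an interval that included 1.

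The place of the Irf7 summit also differed by genotype. It lay 1259 and 1115 bp into the gene, in coding exons, in the untreated and treated Parp14+/+ libraries, and 11 and 75 bp from the start in the Parp14-/- libraries. Over all genes with an interval the highest summit lay within 500 bp of the start in 17.7% and 19.4% of genes in the Parp14+/+ libraries and in 23.2% and 25.4% in the Parp14-/- libraries, a shift in the same direction as at Irf7. The whole gene was covered in all 4 libraries. Its active region was shared with Phrf1, which ends 438 bp beyond Irf7 on the opposite strand, and with Cdhr5 on the same strand 2684 bp upstream.

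Irf3, which is held ready in the cytoplasm and is activated by TBK1, gave little signal. It lies on chromosome 7 from 52253030 to 52258218 on the plus strand. The height was 12 without and 16 with PJ34 in Parp14+/+ cells, and 10 both without and with PJ34 in Parp14-/- cells. An interval was present only in the untreated Parp14+/+ library, where it covered 44.7% of the gene with its summit 27 bp after the start, so the gene was tested in the pairs with that library only. The genotype ratio was 1.2 (0.475 to 3.10). The region was shared with Bcl2l12, which starts 81 bp upstream on the opposite strand, and with Scaf1, 102 bp downstream on the opposite strand.

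Irf5, known from Toll-like receptor signalling in myeloid and B cells, gave heights of 10, 10, 9 and 11. It lies on chromosome 6 from 29476733 to 29487319 on the plus strand, and the 4 heights differed by less than counting error. Intervals covered 41.3%, 49.8% and 28.5% of the gene in the first 3 libraries and none of it in Parp14-/- + PJ34, where the interval began past the end of the row. They lay toward Tnpo3, a gene on the opposite strand that ends 3508 bp beyond Irf5 and shared the active region.

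Irf4, the factor induced by T cell receptor signals that acts with BATF in T cells, had high peaks of similar size in the genotypes. It lies on chromosome 13 from 30841127 to 30858796 on the plus strand. The height was 59 without and 47 with PJ34 in Parp14+/+ cells, and 58 without and 43 with PJ34 in Parp14-/- cells, above 96.3% to 98.6% of genes with an interval. The genotype ratio was 1.02 (0.696 to 1.49) untreated and 1.09 (0.707 to 1.69) under PJ34. Both treated libraries were lower than their untreated partners, by ratios of 1.26 (0.841 to 1.88) and 1.35 (0.894 to 2.05), neither past the limits. A single interval of 32550 to 42900 bp covered the gene in each library, longer than 97.5% to 98.8% of the intervals of that library. It ran on for 11804 to 22454 bp past the gene, and its summit lay between 1003 bp before and 437 bp after the annotated end.

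Irf8, best known from myeloid cells and B cells, was also enriched in each of the 4 libraries. It lies on chromosome 8 from 123260276 to 123280594 on the plus strand. The height was 23 without and 16 with PJ34 in Parp14+/+ cells, and 31 without and 29 with PJ34 in Parp14-/- cells. Both Parp14-/- libraries were higher than both Parp14+/+ libraries. The genotype ratio was 0.742 (0.413 to 1.31) untreated and 0.552 (0.280 to 1.05) under PJ34, and the PJ34 ratio in Parp14+/+ cells was 1.44 (0.727 to 2.91). The last 2 were past the limits of a call, and all 3 intervals included 1. The highest summit lay 13 to 61 bp after the start in every library. In Parp14+/+ + PJ34 a second interval had a summit of 15, 15933 bp after the start, nearly as high as the 16 at the start. Intervals covered 97.0% of the gene in that library and all of it in the others. Of the 4 myeloid and dendritic cell markers with a row, the summed height was 14.5 to 19.2, Itgam was at 0 to 4 and Spi1 at 2.75 to 3.75 with no interval, while Csf1r was at 5.5 to 8.5, with an interval in every library but untreated Parp14-/-. The last of the 4, Zbtb46, was at 2.67 and 4 in the Parp14+/+ libraries and at 5.5 and 3.67 in the Parp14-/- libraries, with an interval in treated Parp14-/- alone. The part of other cell types in the Irf8 signal was not tested.

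**Figure D1:**
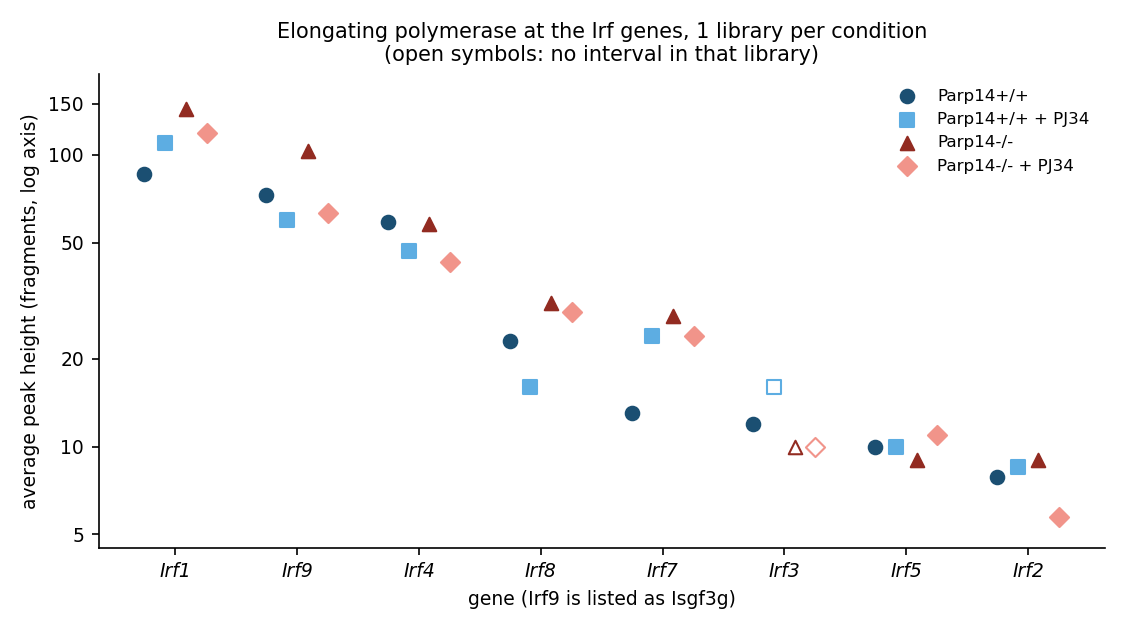
Average peak height (fragments, log axis) of the 8 Irf genes in the 4 libraries, ordered by their highest value. Each symbol is 1 library and open symbols mark libraries without an interval. Irf1, Irf9 and Irf4 stand above 40 in every library, with untreated Parp14-/- the highest at Irf1 (144) and Irf9 (103), while Irf4 lies between 43 and 59.

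The first comparison asked which genes depend on PARP-14. Of the 8 genes tested, 2 were called, Irf1 and Irf7, both higher in Parp14-/-. Over all 7721 genes tested, 22.1% were called, 12.2% higher in Parp14+/+ and 9.96% higher in Parp14-/-, so the share of called Irf genes was close to the background. The counting interval excluded 1 at 3 of the 8, Irf1, Irf7 and Irf9, all higher in Parp14-/-, against 2.25% of all genes in that direction and 3.32% in either. The median ratio was 0.809 over the 8 genes and 1.00 over all genes. The peaks of these 3 genes were taller than the median peak of their library, and a tall peak has a narrower counting interval.

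The same comparison under PJ34 gave another set. Of the 7 genes tested, 2 were called, Irf2 higher in Parp14+/+ + PJ34 and Irf8 higher in Parp14-/- + PJ34, against 27.4% of the 7571 genes tested. In all, 22.2% of genes were called in the direction of Irf2 and 5.18% in the direction of Irf8. The interval excluded 1 only at Irf2, against 3.82% of all genes in either direction and 2.99% in that of Irf2. Irf1, Irf7 and Irf9 had ratios of 0.924, 1.00 and 0.952 here. The median ratio was 0.952 over the 7 genes and 1.15 over all genes, a shift of 0.20 on the log2 scale.

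PJ34 in Parp14+/+ cells was compared at all 8 genes. Irf8 was called higher without PJ34 and Irf7 higher with it, 2 of 8, against 16.6% of the 7971 genes tested, 6.69% higher without and 9.90% higher with PJ34. The interval excluded 1 at none of the 8, against 1.67% of all genes, and the median ratio was 0.964 over the 8 genes and 0.960 over all. In Parp14-/- cells 2 of 7 genes were called, Irf2 and Irf9, both higher without PJ34 and both with an interval that excluded 1. Over the 6861 genes tested in that pair 19.2% were called, and 14.2% in the direction of these 2. The interval excluded 1 at 2.03% of all genes, and in that direction at 1.69%. The median ratio there was 1.21 over the 7 genes and 1.09 over all, 0.13 on the log2 scale. Each library enters 2 of these 4 comparisons, so their ratios are not independent.

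**Figure D2:**
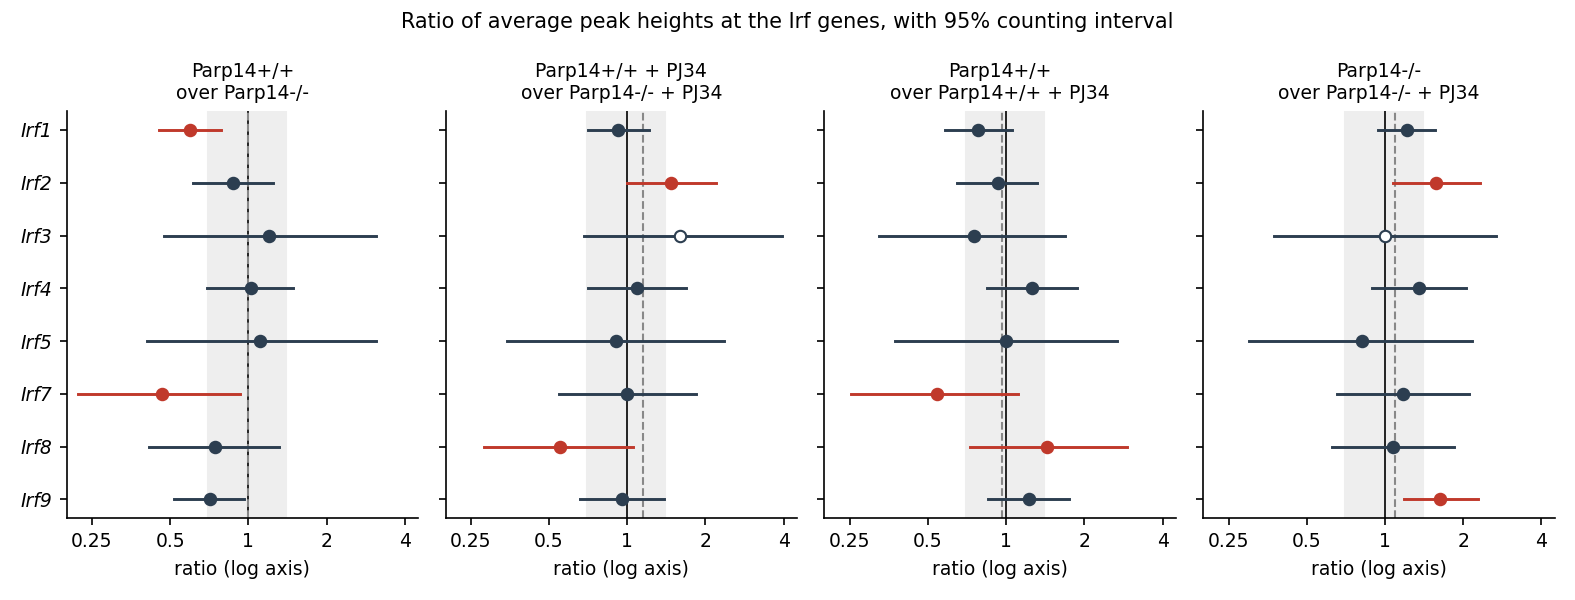
Ratio of average peak heights (log axis) at each Irf gene in the 4 pairs of libraries, with the exact 95% counting interval as a bar. Grey marks ratios from 0.7 to 1.4, the dashed line is the median of all genes tested, red marks called genes and open points genes not tested. In the untreated pair Irf1 (0.597) and Irf7 (0.464) lie left of the grey band, and in the treated pair both lie near 1 (0.924 and 1.00).

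**Figure D3:**
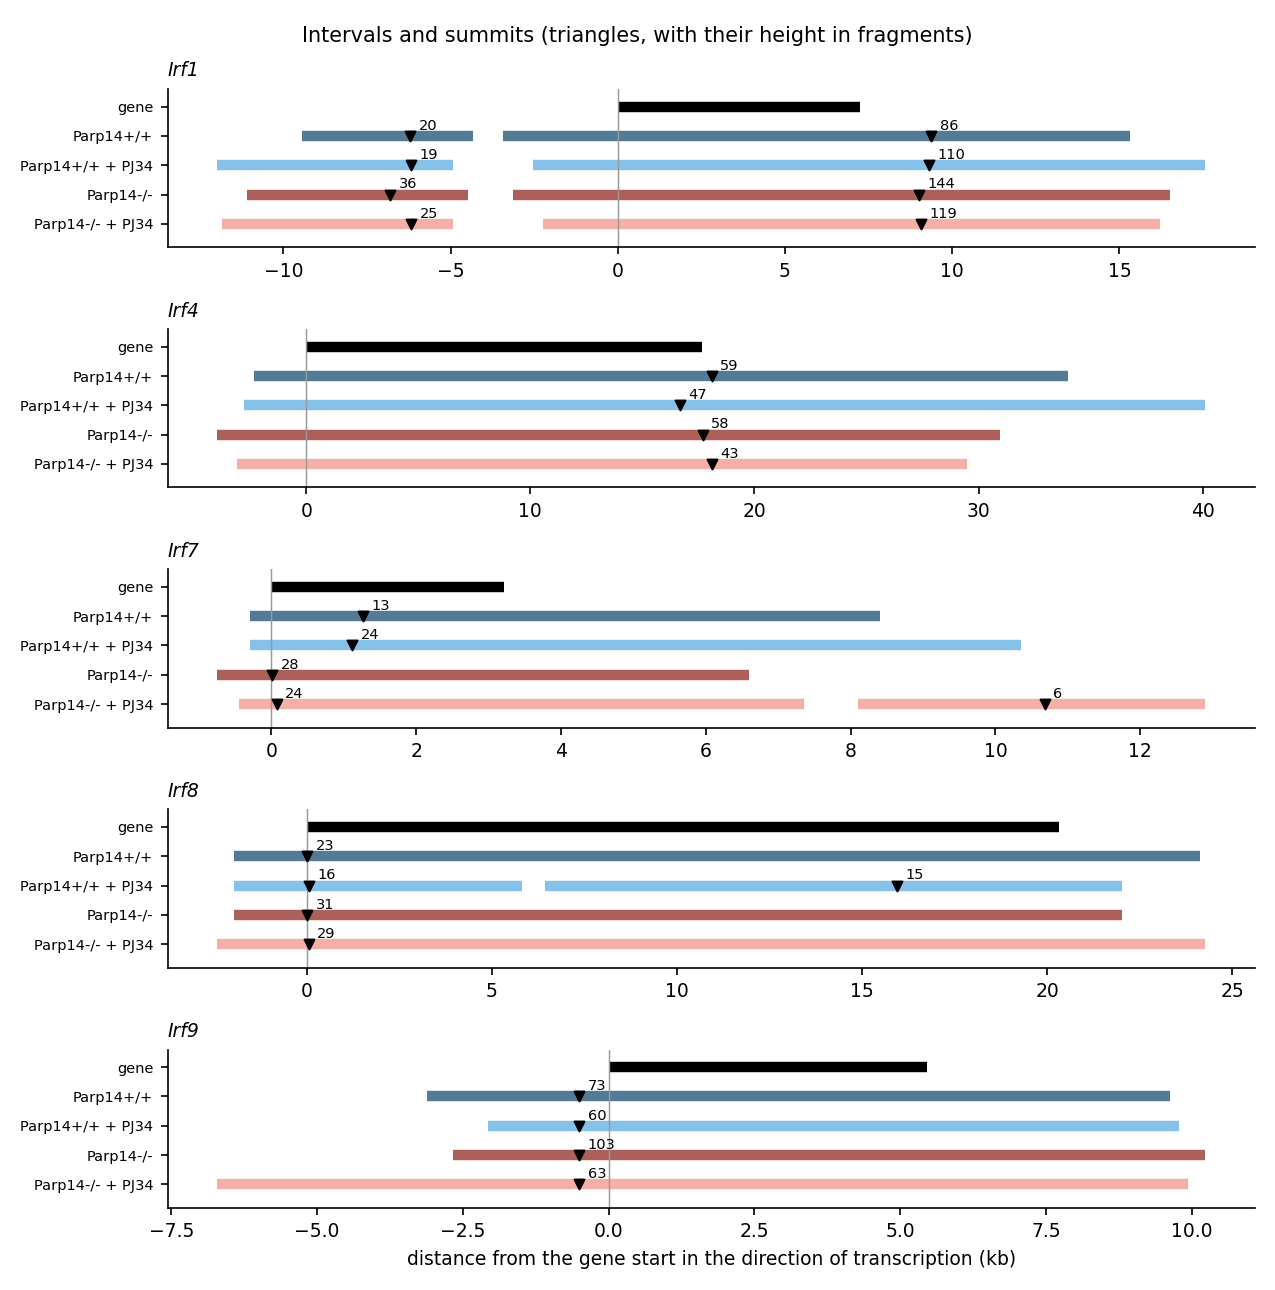
Enriched intervals (bars) of each library at 5 Irf genes against the distance from the gene start in kb, in the direction of transcription, with the gene in black and each summit as a triangle labelled with its height in fragments. The highest summits lie past the end of Irf1, close to the end of Irf4, at the start of Irf8 and 503 bp before the listed start of Irf9. At Irf7 they lie 1115 to 1259 bp inside the gene in Parp14+/+ and 11 to 75 bp from the start in Parp14-/-. At Irf8 in Parp14+/+ + PJ34 a second summit of 15 lies 15933 bp after the start.

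Over all genes with an interval over the gene, the highest summit lay past the end of the row in 31.2% to 39.3%, by library. It lay inside the row in 43.3% to 50.2% and upstream in 16.6% to 20.4%. In untreated Parp14+/+ cells the highest summit lay past the end at 2 of the 8 genes, Irf1 and Irf4. In untreated Parp14-/- cells it did so at 4 of 7, Irf1, Irf2, Irf4 and Irf5. With PJ34 the count was 2 of 7 in Parp14+/+, Irf1 and Irf5, and 2 of 6 in Parp14-/-, Irf1 and Irf4. The Irf5 summits counted here lay past the end of its row but in an Irf5 intron of the GENCODE annotation, so still inside the gene. Irf1, Irf4, Irf7 and Irf9 were covered over their whole length in all 4 libraries, as were 17.4% to 20.9% of all genes with an interval. Intervals covered equal lengths of the gene in untreated Parp14+/+ and Parp14-/- at 5 of the 8, all of them covered in full. Coverage was longer in Parp14+/+ at 2, Irf3 and Irf5, and longer in Parp14-/- at Irf2, against 63.2% and 23.5% of 6753 genes. With 5 kb added on each side it was longer in Parp14+/+ at 5 and in Parp14-/- at 3, against 71.0% and 26.3% of 7856 genes.

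Other genes of the pathway were read from 4 lists that hold 52 genes, of which 44 had a row and 38 were tested in the untreated genotypes. Of these 38, 15 were called, 14 of them higher in Parp14-/-, or 39.5% against 22.1% of all genes. The interval excluded 1 at 9 of the 38, or 23.7% against 3.32% of all genes, all higher in Parp14-/-, and at 7 the gene was also called. Genes that share a region share values, and these 7 rest on 5 sets of regions. The median ratio was 0.860. Under PJ34 5 of 38 were called, 4 of them higher in Parp14+/+ + PJ34, against 27.4% of all genes called and 22.2% in that direction, so the share was below the background. The interval excluded 1 at none, and the median ratio was 1.06 against 1.15 over all genes.

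Of the 13 genes listed as known to need IRF factors, only 7 had a row, and all 7 were tested in untreated cells. Ifit1, Ifit3, Isg15, Mx1, Oas1a and Cxcl10 had no row, so the values below do not cover them. Of these, 6 were called, all higher in Parp14-/-, against 9.96% of all genes called in that direction. The median ratio of 0.561 is the value of 3 genes that share a region. Psmb8 and Psmb9, subunits of the immunoproteasome, and Tap1, the peptide transporter of antigen presentation, share 1 active region and therefore 1 set of values. Their heights were 23, 35, 41 and 35, with a genotype ratio of 0.561 (0.321 to 0.957). B2m, the light chain of MHC class I, had heights of 40, 48, 64 and 67 and a ratio of 0.625 (0.410 to 0.942). Prdm1, the Blimp-1 gene, had 21, 26, 40 and 25 and a ratio of 0.525 (0.294 to 0.912). The low library was untreated Parp14+/+ at all 5 genes, and at B2m the treated Parp14-/- library was the highest. Under PJ34 none of the 7 was called and the median ratio was 1.00.

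Receptors and kinases of interferon signalling had 3 of 9 genes called, all higher in untreated Parp14-/-, with a median ratio of 0.767. Over all genes 22.1% were called, and 9.96% in that direction. Of the 3 called genes, 1 had an interval that excluded 1. Ifngr1, the ligand binding chain of the interferon-gamma receptor, had heights of 4.67, 7.33, 9.33 and 6.67, with a genotype ratio of 0.501 (0.243 to 0.982) and no interval in untreated Parp14+/+. Stat2, a partner of IRF9, had heights of 11, 21, 18 and 15 and a ratio of 0.611 (0.261 to 1.37), past the limit of a call with an interval that included 1.

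Partners and corepressors had 4 of 13 genes called, 3 of them higher in Parp14-/-, and a median ratio of 0.973. The shares over all genes were 22.1% called in either direction and 9.96% called higher in Parp14-/-. Junb, an AP-1 subunit that binds DNA together with BATF and IRF4, had heights of 65, 73, 125 and 90 and a ratio of 0.520 (0.379 to 0.707). Batf itself had 36, 28, 33 and 26 and a ratio of 1.09 (0.661 to 1.81). Sensors, adaptors and kinases upstream of IRF3, IRF5 and IRF7 had 2 of 9 called, a share close to the 22.1% of all genes. The 2 were Ddx58 and Ifih1, the genes of the RNA sensors RIG-I and MDA5, with genotype ratios of 0.656 (0.360 to 1.17) and 0.571 (0.256 to 1.22) whose intervals included 1. The median of that list was 1.10.

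**Figure D4:**
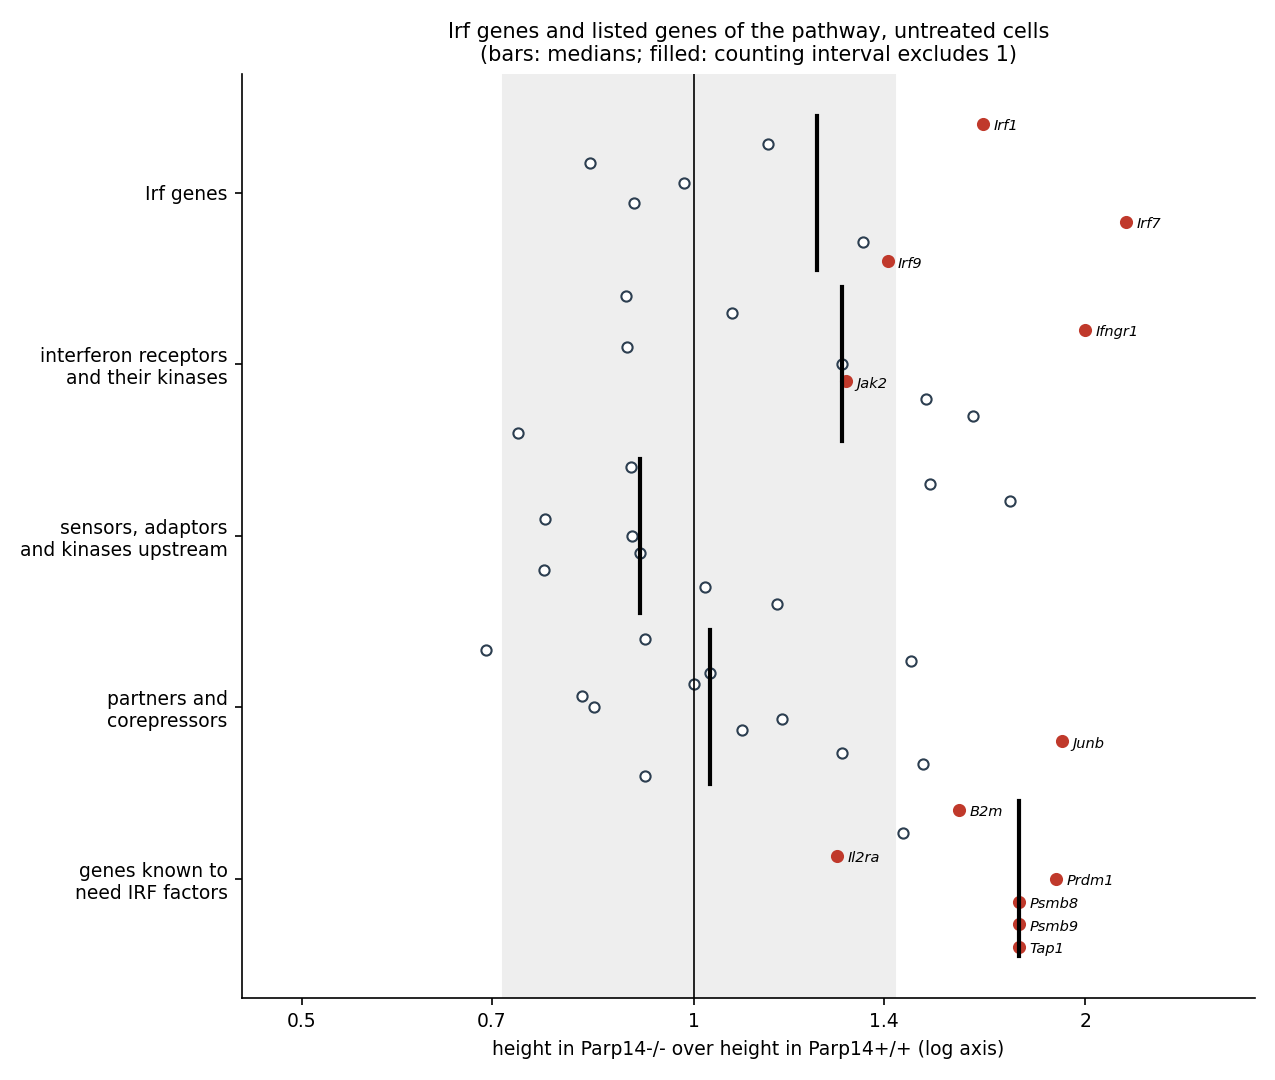
Height in Parp14-/- over height in Parp14+/+ (log axis) in untreated cells for the Irf genes and for 4 lists of pathway genes. Each point is a gene, black bars are list medians, grey marks ratios short of a call, and filled points are genes whose counting interval excludes 1. Those genes known to need IRF factors that had a row lie to the right of 1, from Il2ra (1.29) to Prdm1 (1.90). The lists of sensors and partners spread to both sides.

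For the 4 Irf genes with a summed height of at least 50, genes with the most similar pattern over the 4 libraries were looked up among 790 genes of that height, by the Euclidean distance of log2 heights centred on their mean. With only 4 libraries this is a description. Nearest to Irf1 were Arl15 and Mir21a at a distance of 0.11 and R3hdm1 at 0.12, of which Mir21a, the host site of a microRNA, was similarly tall, with heights of 78, 92, 121 and 108. Nearest to Irf9 were Icos, a T cell costimulatory receptor, at 0.13, Carm1 at 0.15 and Map2k3 at 0.19. Icos had heights of 30, 23.5, 40.5 and 27.5, with untreated Parp14-/- the highest as at Irf9. Nearest to Irf4 were Zswim4 at 0.07, Caprin1 at 0.09 and Glb1 at 0.09, and nearest to Irf2 were Sec24a at 0.07, Sbno1 at 0.10 and Rock1 at 0.11.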

How the data were processed

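RNA Polymerase II phosphoserine 2 ChIP-Seq was carried out on 4 Th2 libraries, 1 per condition. Reads of 36 nt were mapped to mm9 with ELAND, duplicates were removed, and each library was reduced to 8200000 alignments. The authors called intervals with SICER (window 150 bp, fragment 150 bp, gap 450 bp) against Input and merged those of all libraries into active regions. Equal alignments fix the total, so a height is relative to the rest of its library.

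The average peak heights in the deposited gene table are signal values, the depth of overlapping fragments, and the deposited tracks give the intervals and summits. The table also marks with 1 or 0 whether an interval was present. Another 8 columns, of libraries outside these samples, were not used. Chromosome ends and gene ends of the tables match NCBIM37, and track coordinates were shifted to count from 1.

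Ratios, exact binomial intervals, covered lengths and summit positions were computed in Python 3.11.15 with numpy 2.4.6, pandas 2.3.3 and SciPy 1.17.1. The ratio step was tested on simulated heights that held counting error only, which is what the intervals assume. That check does not cover variation between libraries. Rows were named by label, accession or gene ID only where the locus overlapped, which named 10548 of 11608. Genes named are the 8 family genes, listed pathway genes called in the untreated genotypes whose interval excludes 1, the 3 nearest patterns per gene and genes sharing a region. Some cell type markers, and the genes known to need IRF factors that had no row, are also named. Further genes named, Il5, Stat2, Batf, Ddx58, Ifih1 and Il2ra, were chosen after their values were seen. Another gene of the naming rule is not reported here. Family members, lists and markers were chosen with earlier results of these data known. With no replicates, libraries were compared in pairs without a test.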

Additional observations from a re-analysis of the deposited data

Results flagged for a closer look

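At 3 of the 8 genes PJ34 went with opposite directions in the 2 genotypes, 1 library each, so the difference was not tested against replicate error. Of the single PJ34 effects at these 3 genes, only that of Irf2 in Parp14-/- had a counting interval that excluded 1. At none of the 3 were both directions beyond counting error. The ratio of the PJ34 effects was added after the values were seen, with an interval from counting error on the log scale. At Irf1 the treated height was 1.28 times the untreated height in Parp14+/+ and 0.826 times in Parp14-/-, a ratio of effects of 1.55 (1.07 to 2.25). At Irf2 the effects were 1.08 and 0.639, with a ratio of 1.69 (1.02 to 2.80). At Irf7 they were 1.85 and 0.857, with a ratio of 2.15 (0.904 to 5.13), an interval that includes 1. Over 8530 genes with an interval in at least 1 library, 42.7% had opposite directions, 30.2% in the sense of these 3 genes. The median ratio of effects was 1.13, which lies inside the intervals of Irf1, Irf2 and Irf7, and the interval excluded 1 at 1.86% of genes. By highest summit Irf2 had 17 fragments both without and with PJ34 in Parp14+/+ cells, so no opposite direction was seen by that measure. These summits lay 328 and 5176 bp before the start, so equal heights do not show an unchanged peak. At the other 5 genes the effects had the same direction or 1 of them was nil, with ratios from 0.744 at Irf8 to 1.34 at Irf9.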

How the results depend on the processing

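No paired analysis was possible because each condition had 1 library, and leaving out a library removed every comparison it belonged to. In each comparison 2 Irf genes were called. Scaling to the median ratio left 1 call in the treated genotypes and 2 in each of the other pairs. Highest summits left 1 call in Parp14-/- cells with and without PJ34 and 2 in the others. Covered length gave 1 call in the untreated genotypes, 0 in the treated genotypes, 1 for PJ34 in Parp14+/+ and 1 in Parp14-/-. The untreated call was Irf5, at 1.45, and both PJ34 calls were Irf2, at 1.69 in Parp14+/+ and 1.53 in Parp14-/-. Only Irf2 in Parp14-/- had also been called by height. By covered length the Irf2 ratio of the treated genotypes turned to 0.838. Irf1, Irf7 and Irf9 were covered in full in every library, so covered length gave them a ratio of 1.00. Limits of 1.2 and 0.83 gave 4, 2, 5 and 5 calls in the order of the report, and limits of 2 and 0.5 gave 1, 0, 0 and 0. A minimum summed height of 50 left 4, 3, 4 and 4 genes tested and gave 1, 1, 0 and 2 calls. Without the need for an interval in either library the treated genotypes gave 3 calls, with Irf3 added at a ratio of 1.60, and the other pairs stayed at 2. Of the other single ratios, all 30 scaled to the median and all 26 by highest summit stayed within the counting interval of the main value. Every gene but Irf2 had 1 active region, so its average height already was its highest summit and only Irf2 could move by that measure. In the untreated genotypes the median ratio was 1.00, so scaling could change nothing there. With 5 kb added on each side, untreated Parp14+/+ covered more than Parp14-/- at 5 of the 8 genes, not 2, and the highest summit lay past the end at 2, as before. Of 38 pathway genes tested, 23 were called at limits of 1.2 and 0.83, 0 at 2 and 0.5 and 15 when scaled. The minimum height of 50 left 8 genes tested, of which 3 were called. Without the need for an interval 18 of 44 were called. These settings for the pathway genes were chosen after seeing the data. Shares of all genes at the changed settings are not given here. The cause of these changes was not tested beyond what each setting removes. Depth limits the ratios of Irf3, Irf5, Irf7 and Irf8, where heights of 9 to 31 fragments gave wide intervals.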
